A study of Mus musculus with 10 samples.

Results

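The insulin-like growth factor (IGF) ligands, their receptors and their binding proteins were followed across 10 RNA-seq libraries of mouse kidney. The members were chosen by gene symbol: Igf1, Igf2, Igf1r, Igf2r, Igfbp2, Igfbp3, Igfbp4, Igfbp5, Igfbp6 and Igfbp7, which are 10 of the 35663 entries in the table of expression values. They comprise 2 ligands, 2 receptors and 6 binding proteins. The family was picked with results from these same libraries already known, so every value below is a description of these kidneys and no p-value counts as independent support.

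Whole kidneys were taken at E13.5 (E, embryonic day) from mice labelled C57/b6, and the RNA level of each gene was given as FPKM, a fragment count scaled to transcript length and sequencing depth. There were 4 wild-type libraries with no named allele, 3 libraries labelled Foxd1-Cre (Foxd1GC controls) and 3 labelled Foxd1-Cre; Ntn1c/c (Ntn1SPKO). Foxd1GC is a knock-in that places Cre under the Foxd1 gene, which is active in the stromal progenitors of the kidney, so controls and mutants both carry an altered Foxd1 allele that wild types lack. In Ntn1SPKO kidneys this Cre deletes the gene for netrin 1, a secreted guidance molecule, from stromal progenitors and their descendants, and the labels name no Ntn1 allele for the controls. The study describes its replicates as single embryos drawn from several litters, while the labels tie no library to an embryo or litter. The p-values measure only the spread between these libraries.

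As background, IGF1 and IGF2 are secreted growth factors that signal through the receptor tyrosine kinase IGF1R, and IGF2 is the more abundant ligand before birth. IGF2R binds IGF2 at the cell surface and carries it to lysosomes, and Igf2 and Igf2r are imprinted in the mouse, Igf2 being expressed from the paternal copy and Igf2r from the maternal copy. The binding proteins hold IGFs in the extracellular space, where they can limit or prolong access to the receptor, and in the developing kidney IGF signals are known to support the growth of the organ and its nephron progenitors.

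Igfbp6 was lower in every Ntn1SPKO library than in any other library. Its FPKM in Ntn1SPKO libraries was 3.50 ± 0.488 (SD, n = 3), which was 48.6% of the Foxd1GC control mean and 31.6% of the wild-type mean. Igf2r in mutants was 79.1% of the control mean, with no overlap between these groups, but mutants lay inside the wild-type range. Igf1 in mutants was 60.9% of the wild-type mean, again with no overlap, but control 2 lay among the mutants. Of all genes tested, 8.91% were lower in mutants without overlap against controls and 3.54% against wild types. Igf2, Igf1r, Igfbp2 and Igfbp4 differed by 1.18-fold or less in the mean log2 values of mutants and controls. None of the 10 members met the threshold for a call in any comparison, which was a Benjamini-Hochberg adjusted p under 0.1 in limma (a linear model fitted to all genes together) with at least a 2-fold change.

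The promoters of Igfbp6 and Igf2r are shown because these were the 2 members with the lowest p-values between mutants and controls. Each window holds 300 bases, of which 250 lie before the RefSeq start site, in build GRCm38.p6 and in the direction of transcription. Capitals mark matches on either strand to any of 4 short motifs. These were the GC box, spelled GGGCGG, the motif CACCC, the TATA box searched as the letters TATAAA, and the CCAAT box with the letters of its name. The Igfbp6 window lies at chr15:102143936-102144235 on the plus strand and the Igf2r window at chr17:12769657-12769956 on the minus strand; the Igfbp6 window ends before the gene start given by GENCODE.
Igfbp6: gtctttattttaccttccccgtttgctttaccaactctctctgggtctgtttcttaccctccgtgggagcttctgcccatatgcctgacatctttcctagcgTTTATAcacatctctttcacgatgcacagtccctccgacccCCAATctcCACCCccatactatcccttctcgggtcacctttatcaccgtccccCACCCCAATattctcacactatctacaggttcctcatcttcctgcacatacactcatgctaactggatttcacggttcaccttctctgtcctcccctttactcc
Igf2r: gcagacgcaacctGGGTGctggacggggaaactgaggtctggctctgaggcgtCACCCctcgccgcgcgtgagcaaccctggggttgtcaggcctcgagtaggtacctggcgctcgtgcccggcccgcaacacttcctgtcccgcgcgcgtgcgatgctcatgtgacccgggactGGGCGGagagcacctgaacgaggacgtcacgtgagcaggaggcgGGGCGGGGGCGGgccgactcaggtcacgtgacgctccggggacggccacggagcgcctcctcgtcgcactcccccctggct

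The windows differed in base composition. Igfbp6 had 49.7% G and C and 8 CpG dinucleotides, near the median of 7 over 32851 RefSeq promoter windows of the same length, while Igf2r had 70.7% G and C and 34 CpG dinucleotides. The Igfbp6 window held 1 TATA box match, 2 CCAAT matches and 2 CACCC matches, one of which shares bases with a CCAAT match, and it held no GC box match. The Igf2r window held 3 GC box matches and 2 CACCC matches, and neither a TATA box nor a CCAAT match. Across all promoter windows the share with a match on either strand was 13.6% for the TATA box, 37.4% for the CCAAT box, 57.5% for CACCC and 35.7% for the GC box. These matches describe letters only and are not evidence of binding.

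Some properties of the libraries bear on what follows. Ntn1 itself had an FPKM of 16.3, 13.1 and 10.7 in mutants and of 24.2 to 51.4 in the other 7 libraries. All 10 kidney identity markers, of which Wt1 was the most abundant, were above 0 in every library, with a summed FPKM of 394 to 541. Foxd1GC control 3 stood apart: its summed FPKM was 455.8 over 13 skeletal muscle markers, led by Actc1, against 14.9 to 37.2 in mutants and 38.0 to 110.1 in the other libraries, and 134 over 7 ureteric bud markers, led by Wfdc2, against 263 to 328. The 9 renal stroma markers, led by Col3a1, summed to 1612, 913 and 1778 in controls, 864 to 1104 in wild types and 859 to 1025 in mutants. Singly, 7 were lower and 2 higher in mutants than in wild types, where 48.9% of all genes were lower. Foxd1, Ntn1 and Pdgfra were lower without overlap, against 3.54% of all genes. Foxd1, the locus altered in mutants and controls, was 14.2 to 15.4 in mutants, 14.6 to 25.6 in controls and 21.3 to 30.7 in wild types. Transcripts of 4 Y-linked genes summed to 88.6 to 98.1 in all 3 mutants, control 2 and wild type 3, and to 1.02 or less in the other 5 libraries, so sex and genotype were largely confounded. They were fully confounded between mutants and controls without control 2, and between mutants and wild types without wild type 3. The 7 liver markers, led by Afp, summed to 4.15 to 14.7 in mutants, 12.6 to 31.7 in controls and 7.17 to 24.0 in wild types. Wild type 3 had lower values for long transcripts and higher values for short ones, with median log2 deviations of -0.25 and 0.27. Relative to the mean of all libraries, the median log2 level of 614 genes with transcripts of at least 8000 bases minus that of 1885 genes of at most 2000 bases was -0.53 there, against -0.22 in control 3 and -0.04 to 0.18 elsewhere. In whole-kidney RNA, fewer cells of a type and less RNA per cell cannot be told apart.

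Levels spanned a wide range within the family. Ordered by mean FPKM over the 10 libraries, Igf2 came first, followed by Igfbp4, Igfbp5, Igfbp2, Igfbp3, Igf2r, Igf1r, Igf1, Igfbp7 and Igfbp6. Igf2 was above Igfbp4, Igfbp4 above Igfbp5, Igfbp5 above Igfbp2 and Igf2r above Igf1r in 10 of 10 libraries. The order of the lower neighbours was less uniform, since Igfbp3 was above Igf2r and Igf1 above Igfbp7 in 7 of 10 libraries, and Igf1r above Igf1 and Igfbp7 above Igfbp6 in 8 of 10. The ranges of Igfbp4 and Igfbp5, of Igfbp3 and Igf2r, of Igf1r and Igf1, and of Igfbp7 and Igfbp6 overlapped within both the wild-type and the control group. Together the 10 members made up 0.123% to 0.227% of the summed FPKM of a library.

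**Figure D1:**
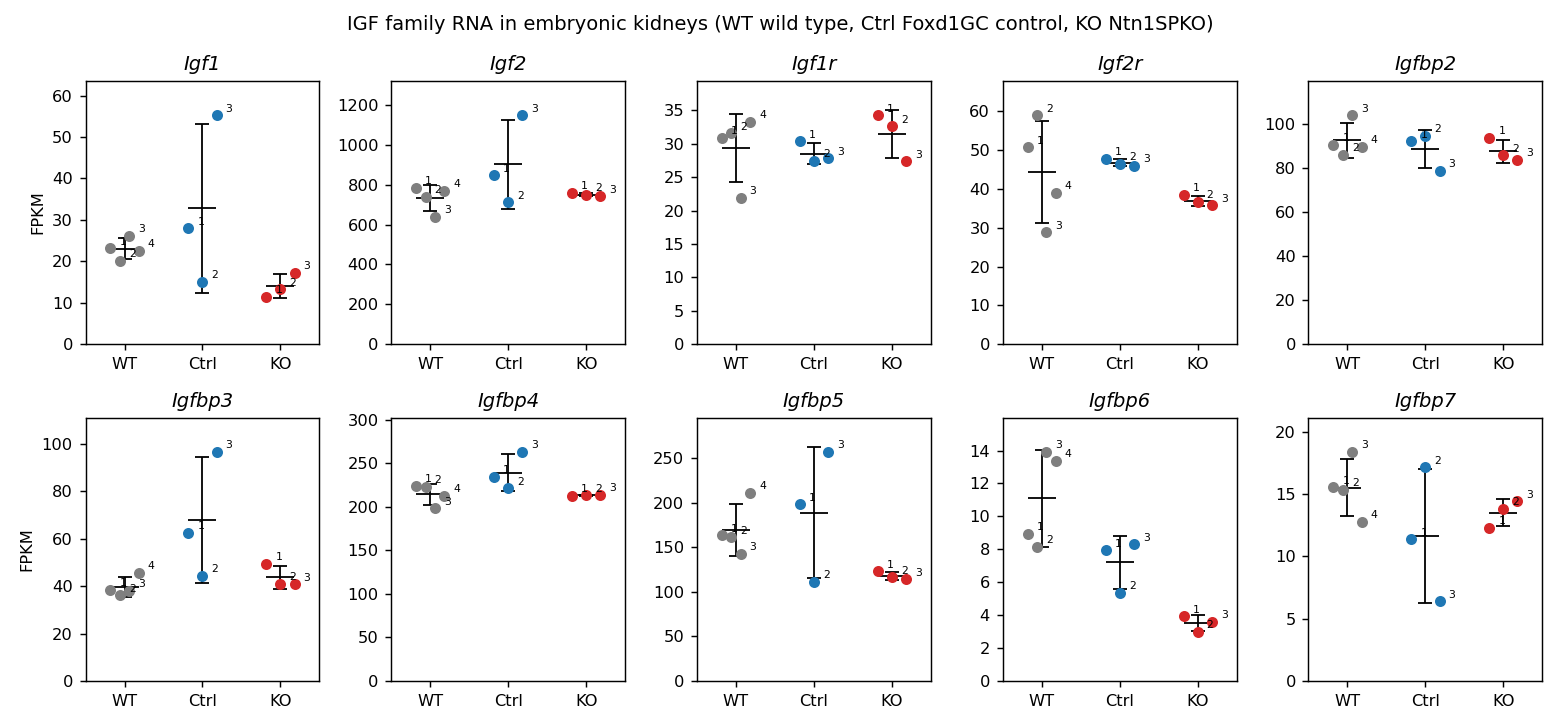
FPKM of each IGF family gene (y axis, linear, from 0) in wild-type (WT, n = 4), Foxd1GC control (Ctrl, n = 3) and Ntn1SPKO (KO, n = 3) kidneys at E13.5; points are libraries with their number, and bars are mean ± SD. Igfbp6 is the only panel in which the 3 mutant libraries lie below all 7 others.

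Igf1, on chromosome 10 (87858265 to 87937042, plus strand, GRCm38), encodes the ligand that also mediates growth hormone action after birth. Its FPKM was 11.5, 13.2 and 17.3 in mutants, 27.9, 15.1 and 55.2 in controls, and 23.1, 20.1, 26.2 and 22.6 in wild types. All mutant values were below all wild-type values, whereas control 2 lay among the mutants and control 3 lay far above every other library. The log2 difference between mutants and controls was -1.04 ± 0.45 (SE; limma, adjusted p = 0.447), and it was -0.57 without control 3 and -1.50 without control 2. Against wild types it was -0.72 ± 0.15 (adjusted p = 0.247), with an exact two-sided permutation p of 0.0286, the smallest that 3 against 4 libraries can give.

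Igf2, on chromosome 7 (142650766 to 142666816, minus strand), encodes the main fetal ligand and was among the most abundant transcripts of the kidney, ranking 175 of all entries by mean FPKM. Its FPKM was 758, 748 and 743 in mutants, 847, 712 and 1148 in controls, and 786, 740.1, 638 and 769.9 in wild types. The mutant values lay close together and within the range of both other groups, and control 3 was again the highest of all libraries. The log2 difference was -0.24 ± 0.17 against controls (adjusted p = 0.522), or -0.05 without control 3, and 0.04 ± 0.09 against wild types (adjusted p = 0.960).

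Because Igf2 differed little between groups and Igf1 was low in mutants, the balance of the ligand transcripts differed. Igf2 FPKM per Igf1 FPKM was 65.9, 56.5 and 42.9 in mutants, 30.3, 47.1 and 20.8 in controls, and 24.4 to 36.9 in wild types. Mutant ratios were above all wild-type ratios but overlapped control 2. Igf2 made up 95.4% to 98.5% of the ligand FPKM in every library, so the summed ligand FPKM, 763.6 ± 5.28 in mutants (SD, n = 3), 935 ± 244 in controls (n = 3) and 757 ± 64.6 in wild types (n = 4), followed Igf2.

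Igf1r, on chromosome 7 (67952827 to 68233668, plus strand), encodes the signalling receptor. Its FPKM was 34.3, 32.6 and 27.4 in mutants, 30.4, 27.4 and 27.9 in controls, and 30.9, 31.6, 21.9 and 33.3 in wild types. The 3 groups overlapped, and wild type 3, the library with low values for long transcripts, was the lowest; the longest Igf1r transcript has 11409 bases. The log2 difference was 0.13 ± 0.10 against controls (adjusted p = 0.549) and 0.11 ± 0.16 against wild types (adjusted p = 0.956).

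Igf2r, on chromosome 17 (12682406 to 12769664, minus strand), encodes the clearance receptor for IGF2, which also sorts lysosomal enzymes, and its CpG-rich promoter is shown above. Its FPKM was 38.4, 36.7 and 35.8 in mutants and 47.8, 46.5 and 46.0 in controls. Both groups were tight and did not overlap, and the log2 difference was -0.34 ± 0.06 (limma, adjusted p = 0.405, ranking 27 of 14550 genes by p-value), with an exact two-sided permutation p of 0.1, the smallest that 3 against 3 libraries can give. It lay between -0.37 and -0.32 when each library was left out in turn. With all 10 libraries in one limma fit, the same difference had an unadjusted p of 0.145, against 0.000771 in limma with mutants and controls alone.

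Wild-type kidneys gave a wider spread for Igf2r, with FPKM of 50.7, 59.0, 28.8 and 39.1. These values reached from below the lowest mutant to above the highest control, and the lowest of them was again wild type 3; the longest Igf2r transcript has 8887 bases. The log2 difference between mutants and wild types was -0.21 ± 0.22 (adjusted p = 0.947), and it was -0.40 without wild type 3 and -0.06 without wild type 2. Without wild type 3 no wild type had a high Y-linked sum, so sex and genotype were fully confounded. The ratio of Igf1r to Igf2r FPKM was 0.764 to 0.891 in mutants, 0.590 to 0.635 in controls and 0.535 to 0.851 in wild types, so that mutants did not overlap controls but did overlap wild types.

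**Figure D2:**
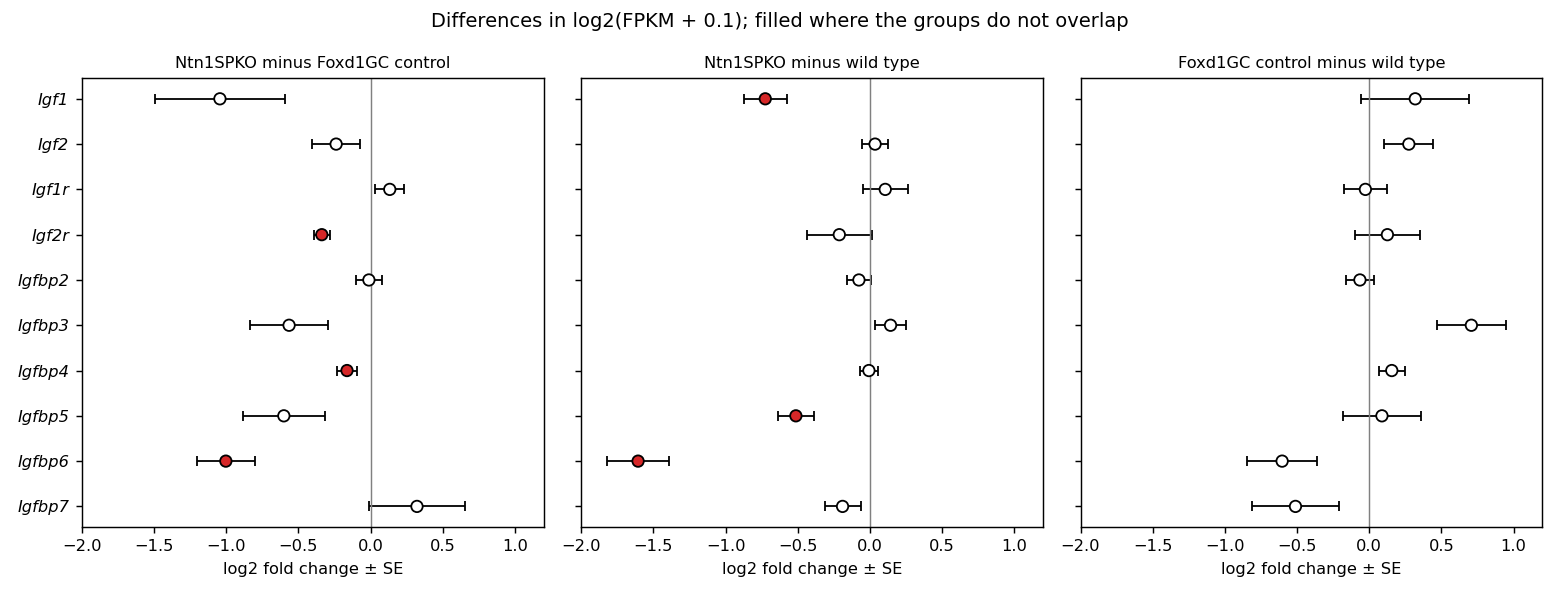
Difference in mean log2(FPKM + 0.1) (x axis, with its limma SE) for each gene (y axis) in 3 comparisons that share groups; filled points mark genes whose 2 groups do not overlap. Igf2r, Igfbp4 and Igfbp6 are filled against Foxd1GC controls, Igf1, Igfbp5 and Igfbp6 against wild types, and none between controls and wild types.

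Igfbp6, on chromosome 15 (102144362 to 102149511, plus strand), encodes a binding protein that prefers IGF2 over IGF1, and was the least abundant member. Its FPKM was 3.93, 2.97 and 3.61 in mutants, 7.94, 5.36 and 8.30 in controls, and 8.96, 8.15, 13.9 and 13.4 in wild types. The mutant libraries held the 3 lowest values, the controls were intermediate, and controls and wild types overlapped by a single pair, control 3 and wild type 2. By a rough estimate of depth from the lowest FPKM values of other genes, these levels rest on about 80 to 100 fragments in mutants, 150 to 200 in controls and 220 to 380 in wild types.

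The log2 difference in Igfbp6 between mutants and controls was -1.00 ± 0.20, a 2.00-fold lower level (limma, adjusted p = 0.447, ranking 58 of 14550 genes by p-value). It ranged from -1.20 to -0.89, with adjusted p between 0.0751 and 0.742, when each library was left out in turn. Without control 2 the adjusted p was 0.0751, and with the size of the difference Igfbp6 met the threshold. That fit set the mutants, whose Y-linked sums were high, against controls 1 and 3, whose sums were 0.359 and 1.02. Sex and genotype were thus fully confounded in it, so the call cannot be assigned to genotype. In the same fit 78 genes were called, against 8 with every library kept. Igfbp5 reached the same adjusted p there, with a log2 difference of -0.94 that fell short of 2-fold. Against wild types the log2 difference was -1.61 ± 0.21, a 3.04-fold lower level (adjusted p = 0.110, ranking 12 of 14432 genes), with an exact two-sided permutation p of 0.0286. It met the threshold when every library was scaled to the same summed FPKM (-1.55, adjusted p = 0.0664) and not with any single library left out (adjusted p of 0.106 to 0.422).

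Igfbp6 was also lower in controls than in wild types, by a log2 difference of -0.60 ± 0.24 (adjusted p = 0.665, unadjusted p = 0.0375 in limma). Among the 5 libraries with Y-linked transcripts its FPKM was 3.93, 2.97 and 3.61 in mutants, 5.36 in control 2 and 13.9 in wild type 3. The order of the groups within these libraries was therefore that of all 10, but with 1 library in each of the other groups it allows no test. Wild type 3 had raised values for short transcripts and the highest Igfbp2, Igfbp6 and Igfbp7, whose longest transcripts have 1307, 1112 and 1200 bases. The part of transcript length in these values was not tested. Skeletal muscle markers were also low in mutants, as given above, and their part in the Igfbp6 difference was not tested. Without control 3, the library richest in them, the log2 difference in Igfbp6 was -0.89. Their sums in controls 1 and 2, 96.6 and 38.0, were still above the 14.9 to 37.2 of mutants, so this value cannot settle that part.

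Igfbp5, on chromosome 1 (72857932 to 72874884, minus strand), encodes a binding protein that attaches to the extracellular matrix. Its FPKM was 123, 116 and 114 in mutants, 198, 112 and 257 in controls, and 163, 161, 143 and 211 in wild types. Mutants were below all wild types, and control 2 was at the mutant level. The log2 difference was -0.51 ± 0.13 against wild types (limma, adjusted p = 0.398; exact two-sided permutation p = 0.0571) and -0.60 ± 0.29 against controls (adjusted p = 0.450). The latter was -0.34 without control 3 and -0.94 without control 2.

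Igfbp3, on chromosome 11 (7206086 to 7213923, minus strand), encodes the main IGF carrier of adult serum. Its FPKM was 49.4, 41.0 and 40.7 in mutants, 62.5, 44.2 and 96.6 in controls, and 38.5, 36.1, 38.0 and 45.7 in wild types. Controls 1 and 3 were the 2 highest libraries, and mutants overlapped both other groups. The log2 difference was 0.71 ± 0.24 between controls and wild types (adjusted p = 0.665), or 0.42 without control 3, and -0.56 ± 0.27 between mutants and controls (adjusted p = 0.450), or -0.27 without control 3.

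Igfbp4, on chromosome 11 (99041244 to 99054392, plus strand), encodes a binding protein that is cleaved by pappalysins. Its FPKM was 212, 213 and 214 in mutants, 234, 221 and 263 in controls, and 224, 222, 198 and 212 in wild types. Mutants lay just below the lowest control and inside the wild-type range. The log2 difference was -0.16 ± 0.07 against controls (adjusted p = 0.447) and -0.01 ± 0.06 against wild types (adjusted p = 0.992).

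Igfbp2, on chromosome 1 (72824503 to 72852474, plus strand), encodes a binding protein common in fetal tissue, and its highest FPKM over the 10 libraries was 1.32 times its lowest. Its FPKM was 93.7, 85.9 and 83.8 in mutants, 92.3, 94.9 and 78.9 in controls, and 90.8, 86.1, 104.0 and 89.8 in wild types. All groups overlapped, and the log2 difference was -0.01 ± 0.09 against controls (adjusted p = 0.959) and -0.08 ± 0.08 against wild types (adjusted p = 0.947). Igfbp2 and Igfbp5 lie 5457 bases apart on opposite strands, and Igfbp5, unlike Igfbp2, separated mutants from wild types.

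Igfbp7, on chromosome 5 (77349240 to 77408041, minus strand), encodes a related protein that binds IGFs weakly. Its FPKM was 12.3, 13.8 and 14.4 in mutants, 11.4, 17.2 and 6.39 in controls, and 15.5, 15.4, 18.4 and 12.8 in wild types. Control 3 was the lowest of all libraries and the groups overlapped. The log2 difference from controls was 0.32 ± 0.33 (adjusted p = 0.649), and it was -0.05 without control 3.

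Fits with embryo sex as a covariate were limited by the design, because all 3 mutants but only control 2 and wild type 3 in the other groups held Y-linked transcripts. The adjusted difference was then that of the mutants from control 2 alone or from wild type 3 alone, 1 library, and is given as a value. From control 2, the log2 difference was -0.13 for Igf1, 0.07 for Igf2, 0.19 for Igf1r, -0.33 for Igf2r, -0.11 for Igfbp2, -0.02 for Igfbp3, -0.05 for Igfbp4, 0.08 for Igfbp5, -0.61 for Igfbp6 and -0.35 for Igfbp7. Igfbp6 and Igf2r thus stayed below control 2, while Igf1, Igf2, Igfbp3 and Igfbp5 lay near it and Igfbp7 was below it rather than above.

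Wild type 3 had low values for long transcripts, high values for short ones and the highest Igfbp6. From this library the log2 difference was -0.92 for Igf1, 0.23 for Igf2, 0.51 for Igf1r and 0.36 for Igf2r. It was -0.25 for Igfbp2, 0.20 for Igfbp3, 0.11 for Igfbp4, -0.28 for Igfbp5, -1.97 for Igfbp6 and -0.44 for Igfbp7. Both receptors were higher in mutants than in this library, so the Igf2r difference had the opposite sign to that without the covariate. The part of transcript length in the receptor differences was not tested. Each difference from wild type 3 rests on 1 wild-type library, so no p-value is given for it.

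**Figure D3:**
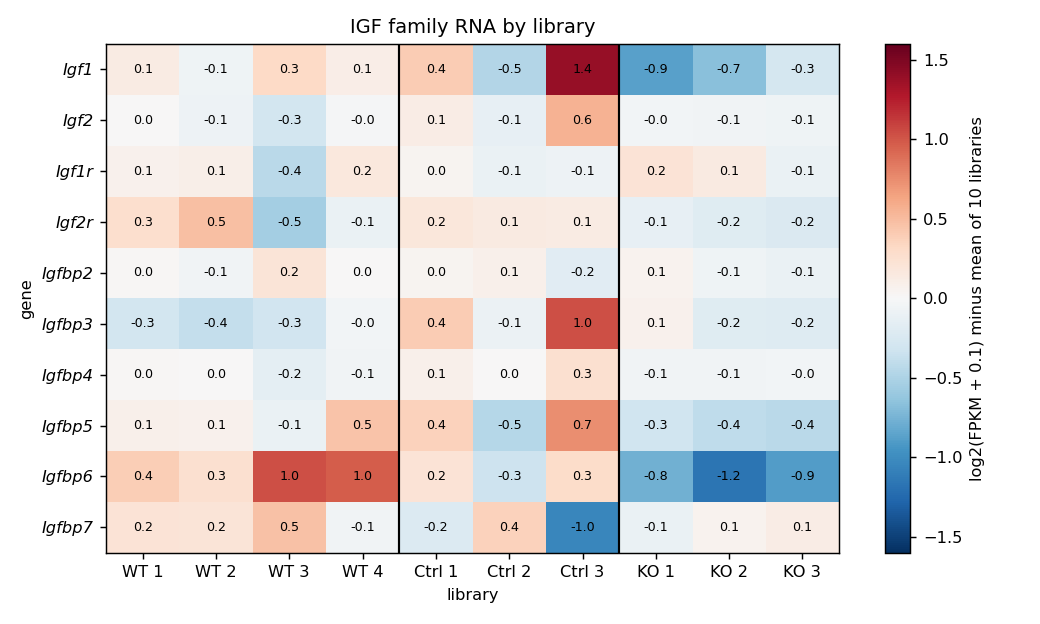
Log2(FPKM + 0.1) of each gene (rows) minus its mean over 10 libraries, by library (columns; WT wild type, Ctrl Foxd1GC control, KO Ntn1SPKO); red is above and blue below the mean. Igf1, Igf2, Igf2r, Igfbp4, Igfbp5 and Igfbp6 are below their means in all 3 mutants. Control 3 holds the highest Igf1, Igf2, Igfbp3, Igfbp4 and Igfbp5 and the lowest Igfbp7.

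The summed FPKM of the 6 binding proteins was 494.5, 473 and 470.0 in mutants, 606, 494.0 and 709.8 in controls, and 515 to 585 in wild types. Mutants lay below every wild type and overlapped control 2. Igfbp6 contributed 0.628% to 0.794% of this sum in mutants, 1.08% to 1.31% in controls and 1.54% to 2.70% in wild types, with no overlap between any of the groups. Igfbp5 contributed 24.2% to 24.9% in mutants, 22.6% to 36.2% in controls and 27.8% to 36.1% in wild types, whereas Igfbp4, the largest contributor in 10 of 10 libraries, made up 42.9% to 45.5%, 37.0% to 44.7% and 36.3% to 42.0% in the same groups. Summed ligand FPKM per summed binding protein FPKM was 1.56 to 1.62 in mutants, 1.44 to 1.69 in controls and 1.29 to 1.49 in wild types.

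**Figure D4:**
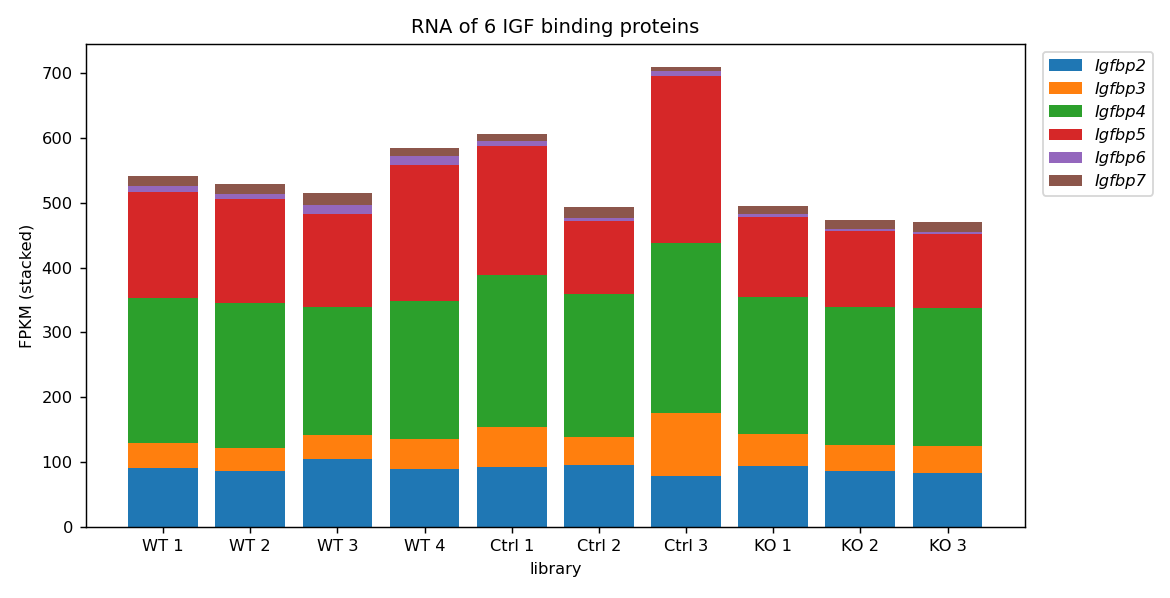
Stacked FPKM (y axis, from 0) of the 6 binding protein genes in each library (x axis; WT wild type, Ctrl Foxd1GC control, KO Ntn1SPKO). The mutant bars reach 470.0 to 494.5, below all wild-type bars, and the tallest bar is control 3 at 709.8.

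The counts of members can be read against all genes tested. Against controls, 8 of the 10 members had a lower mean log2 level in mutants, of which Igfbp2 was higher once libraries were scaled to the same summed FPKM and Igf2 and Igfbp5 were higher with embryo sex in the fit, and the median log2 difference of the members was -0.29, compared with 48.8% of 14550 genes lower and a median of 0.01. Of the members 2, Igf2r and Igfbp6, were lower at an unadjusted p under 0.05 in limma and none was higher, where 5.17% of all genes were lower and 5.49% higher by that rule. A further rule, no overlap between groups, put 3 members, Igf2r, Igfbp4 and Igfbp6, below all controls and none above, against 8.91% and 11.0% of all genes. By the call threshold 0 members passed, and 8 genes in all, or 0.0550%.

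Against wild types, 7 of the 10 members were lower in mutants, of which Igfbp4 was higher under that scaling, under quantile normalization and with embryo sex in the fit and Igf2r was higher with embryo sex in the fit, with a median log2 difference of -0.13, compared with 48.9% of 14432 genes and a median of 0.00. Igf1, Igfbp5 and Igfbp6 were lower at an unadjusted p under 0.05 in limma and also lay below all wild types without overlap, and no member was higher by either rule. Over all genes 3.31% were lower and 2.45% higher at that p, and 3.54% lay below and 3.56% above without overlap. No member and 7 genes, or 0.0485%, met the call threshold.

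Between controls and wild types 6 members were higher and 4 lower in controls, and the median log2 difference was 0.11. Igfbp3 was higher and Igfbp6 lower at an unadjusted p under 0.05 in limma, where 3.84% of 14594 genes were higher and 3.23% lower. No member separated the groups without overlap, against 4.04% of genes in each direction, and 0 members and 1 gene, or 0.00685%, met the call threshold. These comparisons share groups: each group enters a pair of them.

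**Figure D5:**
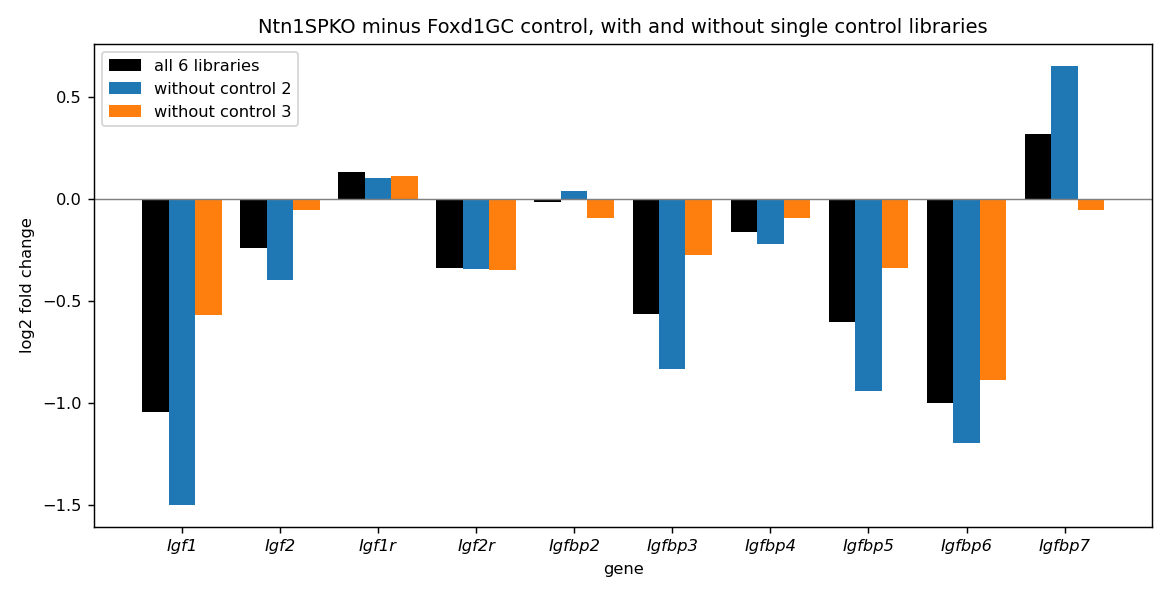
Difference in mean log2(FPKM + 0.1) between Ntn1SPKO and Foxd1GC control kidneys (y axis) for each gene (x axis), with all 6 libraries, without control 2 and without control 3. Igf1, Igf2r, Igfbp5 and Igfbp6 stay at -0.32 or below in each case, although Igf1 moves between -1.50 and -0.57. Igfbp2 and Igfbp7 change sign.

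Other genes of the pathway were taken from lists and none met the call threshold. Of 7 further ligand, receptor and binding protein genes only Insr, the insulin receptor, was high enough to test, with an FPKM of 12.9 ± 0.358 in mutants (SD, n = 3), 12.3 ± 1.40 in controls (n = 3) and 11.9 ± 1.89 in wild types (n = 4). Igfbp1 and Igfals, the acid-labile subunit of the serum IGF complex, had mean FPKM under 0.3 in each group. H19, the noncoding RNA gene next to Igf2, was not analysed here.

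Of 5 genes for IGFBP proteases and their inhibitors 4 were tested, and 3 were lower and 1 higher in mutants than in controls. Htra1, a secreted protease that can cleave IGFBPs, had an FPKM of 0.451, 0.585 and 0.664 in mutants, 1.16, 0.896 and 1.57 in controls, and 0.488, 0.570, 0.504 and 0.917 in wild types. Controls lay above mutants and overlapped wild types, and the log2 difference was -0.95 ± 0.31 between mutants and controls (limma, unadjusted p = 0.0191, adjusted p = 0.447) and 0.87 ± 0.31 between controls and wild types (adjusted p = 0.665).

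Of 27 genes of intracellular IGF and insulin signalling 26 were tested, with 14 lower and 12 higher in mutants than in controls and a median log2 difference of 0.00. Irs2, a docking protein of the IGF1 and insulin receptors, was higher in mutants than in controls by 0.25 ± 0.10 on the log2 scale (limma, unadjusted p = 0.0435, adjusted p = 0.447). Pik3r1, a regulatory subunit of phosphoinositide 3-kinase, was lower in mutants than in wild types, with a log2 difference of -0.34 ± 0.09 (limma, unadjusted p = 0.00590, adjusted p = 0.459). These were the only genes of the list at an unadjusted p under 0.05 in the 3 comparisons. By that rule, 5.49% of all genes tested were higher in mutants than in controls and 3.31% lower in mutants than in wild types.

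Of 8 regulators of Igf2 and Igf2r RNA 5 were tested, and 3 of them were higher in mutants than in controls at an unadjusted p under 0.05, where 5.49% of all genes tested were. Igf2bp1 and Igf2bp2, RNA-binding proteins of Igf2 mRNA, had log2 differences of 0.34 ± 0.12 and 0.17 ± 0.06, and Hmga2, a chromatin protein of growing embryonic tissue, had 0.24 ± 0.09 (limma, adjusted p = 0.447 for each). Control 3 had the lowest FPKM of all libraries for Igf2bp1 (51.9) and Hmga2 (199), and Hmga2 was 233 in control 2 and 230 in mutant 3. Mutants overlapped wild types for Igf2bp1 and Hmga2 and lay above them for Igf2bp2. Plagl1, an imprinted zinc finger gene, was lower in mutants than in wild types by a log2 difference of -0.38 ± 0.13 (adjusted p = 0.724), with an FPKM of 128, 121 and 122 against 161, 155, 132 and 201. Plagl1 was thus below wild types without overlap, as Igfbp5 and 3.54% of all genes tested were. Its FPKM in controls was 200.6, 120.2 and 225.6, with control 2 below every mutant.

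The genes whose log2 levels followed each member most closely over the 10 libraries, among 12133 candidates, are given as a description, since all genes of a library share its tissue makeup and RNA. Igfbp6 was most like Cldn1 (Pearson r = 0.979, Spearman rho = 0.927), Ccdc3 (0.959, 0.915) and Ptger3 (0.957, 0.915), and r was 0.974 to 0.984 without control 3. Igfbp5 was most like Bnc2 (r = 0.989), Plagl1 (0.986) and Parm1 (0.983), and Igf1 most like Abca9 (0.986), Filip1l (0.981) and Crabp1 (0.979). Igf2r had lower maxima, with Sv2a (r = 0.917), Frmd4b (0.903) and Pcdh18 (0.894). The 3 nearest to Igf1r were Cemip2 (0.984), Sort1 (0.984) and Pikfyve (0.977). Wild type 3 was the lowest library for Igf1r, Igf2r and the genes nearest to each, and the highest for Igfbp2 and its nearest genes. Likeness without wild type 3 was not computed.

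Several members shared control 3 as an extreme library with their nearest genes. Igf2 was most like Camk2a (r = 0.984, and 0.925 without control 3), Loxl2 (0.984, 0.930) and Ddr2 (0.983, 0.928), and Igfbp4 most like Nid1 (0.965, 0.922), Slc12a4 (0.963, 0.897) and again Loxl2 (0.960, 0.882). Igfbp3 was most like Mical2 (0.980, 0.927), Emp2 (0.962, 0.864) and Mamdc2 (0.962, 0.892). Igfbp7, the member lowest in control 3, was most like Nuf2 (0.986, 0.944), Tubb4b (0.982, 0.939) and Acer2 (0.981, 0.923), and Igfbp2 was most like Tprkb (0.954, 0.930), Pfn2 (0.928, 0.936) and Etfrf1 (0.917, 0.878). Igf2 and Igfbp7 ran in opposite directions over the libraries (r = -0.959, rho = -0.806, and r = -0.827 without control 3).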

How the data were processed

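The members and gene lists were chosen with earlier results of these data known. RNA from whole E13.5 kidneys of 10 libraries was quantified by the authors with Salmon against Ensembl GRCm38 coding sequences and imported with tximport, and reads were demultiplexed with bcl2fastq 2.17.1.14 per the labels. The deposited values are FPKM, with 1 column per library; how FPKM were derived, read totals and strandedness are not given in the sources used here, so antisense transcripts of Igf2 and Igf2r could not be told apart from these genes. Because FPKM are not counts, limma 3.58.1 (R 4.3.3) was run on log2(FPKM + 0.1), a scale that understates changes of low genes, keeping genes whose mean over the compared libraries reached 0.5 FPKM, with a mean-variance trend and Benjamini-Hochberg adjustment over all genes tested. The fit was tested on simulated data. Single genes were compared by exact two-sided permutation tests of mean log2 values. Genes named are the 10 members, listed pathway genes at an unadjusted p under 0.05, Igfbp1, Igfals, Insr and H19, the 3 genes most correlated with each member and the most abundant gene of each marker list shown. H19, Igf2os and Airn matched no entry and were not analysed here. Coordinates are GENCODE GRCm38 and promoters RefSeq GRCm38.p6, which held a window for all 10 members. Same-numbered libraries did not deviate together (correlations of -0.05 to 0.08 over genes), so the numbers were not treated as pairs. Sex was taken from the Y-linked sum, above 5 FPKM. Alternatives varied the pseudocount, filter, scaling, libraries fitted, replicate block, sex covariate and each library in turn.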

Additional observations from a re-analysis of the deposited data

How the results depend on the processing

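Of 440 values of single members under the alternatives, 409 kept their sign and their side of the threshold, 28 changed sign and 3 newly met the threshold, all 3 for Igfbp6. Genes called between mutants and controls numbered 21 without a filter, 0 with all 10 libraries in one fit, 4 with the replicate block, 4 with embryo sex as a covariate and 3 to 78 with 1 library left out, against 8; members called numbered 0 to 1 with 1 library left out. Between mutants and wild types genes called numbered 2 with a pseudocount of 1, 18 without a filter, 0 with all 10 libraries, 187 with embryo sex and 1 to 20 with 1 library left out, against 7, and 1 member was called with the same summed FPKM and 1 with embryo sex. Between controls and wild types they numbered 2 with a pseudocount of 1, 2 with 0.01, 9 without a filter, 0 with all 10 libraries, 0 with the replicate block and 3 to 20 with 1 library left out, against 1. Scaling to the same summed FPKM left 33.7% of genes lower in mutants than in wild types, against 48.9%. With embryo sex the mutants are set against 1 library. Without control 2, the setting with 78 genes and 1 member called between mutants and controls, sex and genotype were fully confounded. The same held between mutants and wild types without wild type 3. The cause of the shifts in settings other than embryo sex was not tested.

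Signs changed as follows, in log2 differences. With embryo sex, mutants minus controls gave 0.075 for Igf2, 0.077 for Igfbp5 and -0.35 for Igfbp7, mutants minus wild types 0.36 for Igf2r and 0.11 for Igfbp4, and controls minus wild types 0.000565 for Igf1r. With the same summed FPKM, Igfbp2 was 0.024 in mutants minus controls and Igfbp4 0.049 in mutants minus wild types; with quantile normalization Igfbp4 was 0.063 in the latter and Igfbp2 0.00401 in controls minus wild types. The replicate block gave Igf1r 0.038 in controls minus wild types, the only member sign it changed, and it changed no member call. With 1 library left out, mutants minus controls ranged from -0.094 to 0.039 for Igfbp2 and -0.051 to 0.65 for Igfbp7, mutants minus wild types from -0.044 to 0.015 for Igfbp4, -0.030 to 0.071 for Igf2 and -0.028 to 0.20 for Igf1r, and controls minus wild types from -0.16 to 0.038 for Igf1r, -0.064 to 0.28 for Igf2r, -0.16 to 0.78 for Igf1, -0.12 to 0.017 for Igfbp2 and -0.17 to 0.43 for Igfbp5.

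Mutants 1, 2 and 3 deviated most like controls 2, 2 and 1, so not every library matched its own number best. The Igfbp6 level in mutants rests on about 80 to 100 fragments, and depth was not estimated for the other members.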
